A study of Mus musculus with 18 samples.

Results

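The genes of arginine use followed here are 10 of the 48794 rows of the count table, taken as the rows whose Ensembl IDs carry the symbols Slc7a2, Arg1, Arg2, Nos2, Ass1, Asl, Odc1, Azin1, Srm and Sat1 in GENCODE M21, an annotation of the GRCm38 mouse genome. No expression value entered that choice, although earlier results of these data were known when it was made. The RNA came from bone marrow-derived macrophages of male C57BL/6 mice, cells grown from marrow with M-CSF, which drives precursors towards macrophages. Maturation took 7 days at 50 ng/ml M-CSF, and the treatments that followed lasted 24 h. Every group stayed in M-CSF at 10 ng/ml: Control cells had nothing else, IL4_IL13 cells had IL-4 and IL-13 at 10 ng/ml each, and IL4_IL13_TNFa cells had those cytokines and TNFa, all at 10 ng/ml. Each group had 6 libraries, numbered 1 to 6, and none had TNFa alone, so what TNFa does without IL-4 and IL-13 was not measured.

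Macrophages take up arginine through cationic amino acid transporters and spend it in competing ways. Arginase splits it into urea and ornithine, and inducible nitric oxide synthase turns it into nitric oxide and citrulline. Citrulline can be built back into arginine by argininosuccinate synthase and lyase, and ornithine feeds the polyamines putrescine, spermidine and spermine. In mouse macrophages IL-4 and IL-13 are textbook inducers of arginase 1, and inflammatory signals of inducible nitric oxide synthase.

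Values are counts scaled to library size (CPM, on sizes adjusted by TMM), and changes are log2 fold changes tested by edgeR's quasi-likelihood method, with p-values adjusted by Benjamini and Hochberg over 13177 genes. A change was called at an adjusted p under 0.05, and ± after it gives an approximate standard error. The libraries held 14793404 to 20056125 counts. Of the 10 genes 9 passed the filter on low counts, and Arg2 did not. No label ties the libraries to separate mice or dishes. The p-values therefore reflect how these libraries scatter, and that scatter may be technical. In bulk RNA, fewer cells of a type and less RNA per cell cannot be told apart.

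Some facts of the libraries bear on these genes. All 10 macrophage markers were detected in every group, with a summed level of 14690 to 25790 CPM in Control, 8756 to 10610 CPM in IL4_IL13 and 8676 to 9500 CPM in IL4_IL13_TNFa. Control replicate 1 stood apart: 1836 genes differed by more than 2-fold from its fellow controls, and no other library exceeded 393 genes when set against its own group. The summed level of 20 cell cycle genes was 4535 CPM in that library, 1118 to 2005 CPM in the other 5 controls, 2432 to 4461 CPM in IL4_IL13 and 568 to 785.4 CPM in IL4_IL13_TNFa. Summed levels of 10 neutrophil and precursor markers were 0.818 to 3.14, 4.09 to 6.62 and 12.8 to 18 CPM in the 3 groups, carried by Cxcr2 in the cytokine groups (4.61 and 14 CPM) but not in Control (0.0369 CPM), with Ly6g at 0 counts throughout. Those of 6 dendritic cell markers were 1.26 to 3.80, 2.72 to 6.54 and 34.0 to 36.5 CPM, of which Zbtb46 made up 33.9 CPM in IL4_IL13_TNFa, where Xcr1 was at 0. Eosinophil markers, carried by Siglecf and Ccr3 with Epx at 0 counts throughout, summed to 6.50 to 11.9, 28.1 to 39.2 and 57.7 to 65.1 CPM. Endothelial markers summed to 31.6 to 59.1, 156.0 to 323.3 and 92.7 to 218.6 CPM, carried by Vwf, and those of B cells, T and NK cells, mast cells and erythroid cells to at most 3.20 CPM. The 10 stromal markers summed to 21.6 CPM in Control replicate 1, 110.8 to 672.9 CPM in the other controls, 64.4 to 567.5 CPM in IL4_IL13 and 65.2 to 377.7 CPM in IL4_IL13_TNFa. Mitochondrially coded genes took 1.23 to 1.42% of counts in Control, 1.37 to 1.72% in IL4_IL13 and 1.54 to 1.84% in IL4_IL13_TNFa, and the share was higher in IL4_IL13_TNFa than in IL4_IL13 in 6 of 6 numbers. The part of these markers and of this share in the results was not tested.

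The 3 comparisons gave different sets. Against Control, IL4_IL13 raised 4 of the 9 tested genes, Slc7a2, Arg1, Ass1 and Odc1, where 29.3% of all tested genes were higher. It lowered 1, Asl, where 29.7% were lower, and the groups of 2 did not overlap (26.7% of all). Adding TNFa to the type 2 cytokines raised 5 of 9, Slc7a2, Nos2, Ass1, Asl and Srm (30.3% of all), and lowered 2, Arg1 and Sat1 (29.3% of all), with 6 free of overlap (44.9% of all). IL4_IL13_TNFa against Control called 6 higher, Slc7a2, Arg1, Nos2, Ass1, Odc1 and Srm (36.4% of all), and 1 lower, Sat1 (37.3% of all), with 5 free of overlap (51.2% of all). In either direction 59.0%, 59.6% and 73.8% of all tested genes were called in the 3 comparisons. Nos2 passed the filter through the IL4_IL13_TNFa libraries alone and so had to differ. Arg1, with 2 to 20 counts in a Control library, passed it through the cytokine-treated libraries. Its calls against Control therefore lend no support either, and the medians below include both genes. Since most genes of the table were called, these counts say little about the genes, and the sizes of the changes below carry the account. The median log2 fold change of the 9 genes was 0.83, 0.44 and 1.72 in these comparisons, beside 0, 0 and -0.02 for all tested genes. The last comparison shares its libraries with both others.

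**Figure D1:**
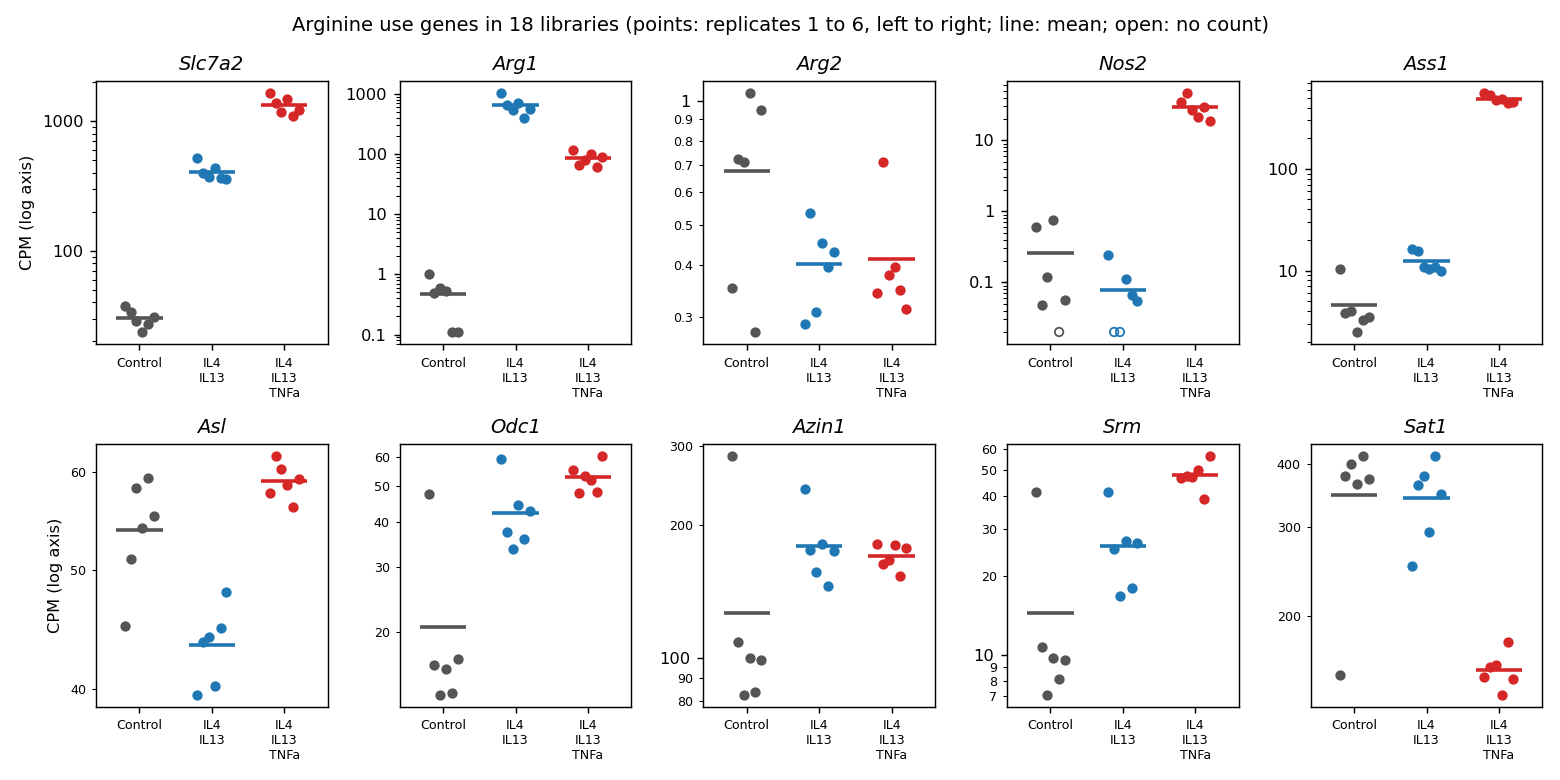
Level of each gene in every library (CPM, log axis, a separate scale for each gene), by group, with replicates 1 to 6 from left to right, the mean as a line and libraries without a count as open points. Slc7a2 climbs in both steps, Arg1 peaks in IL4_IL13, Nos2 and Ass1 are high only with TNFa among the 3 groups, and in Odc1, Azin1, Srm and Sat1 the first Control library lies away from the other 5.

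**Figure D2:**
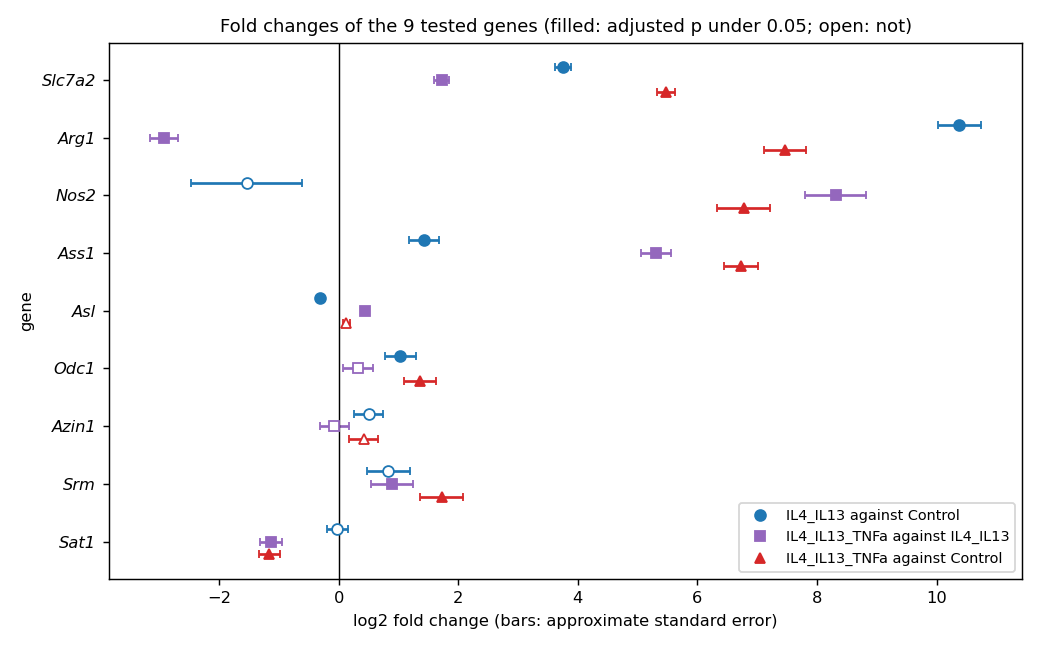
Log2 fold change of the 9 tested genes in the 3 comparisons, with bars for the approximate standard error, filled points for an adjusted p under 0.05 and open points for the rest. Arg1 has the largest rise in IL4_IL13 against Control at 10.38 and turns to -2.92 when TNFa is added, while Slc7a2 and Ass1 are above 0 in all 3 comparisons.

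Slc7a2 encodes CAT-2, a carrier of arginine, lysine and ornithine across the plasma membrane, and lies on chromosome 8 from 40862396 to 40922308, plus strand. Its Control level ran from 23.6 CPM through a median of 29.8 to 37.7 CPM. In IL4_IL13 the lowest library had 355.8, the median was 383.9 and the highest 524.9 CPM, and in IL4_IL13_TNFa these were 1102, 1311 and 1656 CPM. No library of one group reached the range of another, and the rank order was the same in all 6 replicate numbers. The rise with IL-4 and IL-13 was 13.4-fold (log2 3.75 ± 0.14, adjusted p = 8.39e-14), and TNFa on top of them raised it a further 3.3-fold (1.72 ± 0.12, adjusted p = 6.6e-10). Against Control the 3 cytokines gave 44.2-fold (5.47 ± 0.15, adjusted p = 2.69e-16). Its exons share 635 bases with Gm26584 on the opposite strand, which had 0 to 12 counts in a library.

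Arg1 encodes cytosolic arginase 1, the liver-type enzyme, and lies on chromosome 10 from 24915221 to 24927484, minus strand. In Control it was close to silent, with 1.00, 0.481, 0.592, 0.522, 0.11 and 0.112 CPM in replicates 1 to 6, which is 53 counts in all. With IL-4 and IL-13 the same 6 numbers gave 1036, 662.5, 536.8, 694.4, 391.4 and 551.7 CPM. With TNFa added they gave 116.0, 65.6, 79.1, 99.0, 60.8 and 90.4 CPM. The groups did not overlap, replicate 1 was the highest in each of them, and the IL4_IL13_TNFa libraries lay between the other groups. IL4_IL13 exceeded Control by 10.38 ± 0.36 on the log2 scale (adjusted p = 7.19e-14), and the summed counts gave a ratio of 1389 (95% counting interval 1062 to 1854). Under TNFa the level was 7.58-fold lower than in IL4_IL13 (-2.92 ± 0.23, adjusted p = 2.86e-09), and lower in 6 of 6 numbers. It still exceeded Control by 7.46 ± 0.35 (adjusted p = 9.37e-13), a count ratio of 178.6 (interval 136.4 to 238.7). On the log2 scale the fall was smaller than the rise before it. Arg1 passed the filter through the cytokine-treated libraries, so its p-values against Control lend no support.

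Arg2 encodes arginase 2, the mitochondrial form, and lies on chromosome 12 from 79130777 to 79156301, plus strand. It was near the detection limit in every group, with 5 to 18 counts in a library. Control ran from 0.276 through a median of 0.716 to 1.04 CPM, IL4_IL13 from 0.289 through 0.414 to 0.534 CPM and IL4_IL13_TNFa from 0.313 through 0.363 to 0.711 CPM. The ranges overlap. Two-sided exact permutation tests of the mean CPM, whose smallest p with 6 against 6 is 0.00216, gave a difference of -0.274 for IL4_IL13 minus Control (p = 0.0693, adjusted over the 3 comparisons 0.195). The exact tests gave 0.0129 for IL4_IL13_TNFa minus IL4_IL13 (p = 0.874, adjusted 0.874) and -0.261 for IL4_IL13_TNFa minus Control (p = 0.13, adjusted 0.195). Without Control replicate 1, Control replicate 5 or IL4_IL13 replicate 2, Arg2 passed the filter and edgeR called it lower in IL4_IL13 than in Control, at a log2 fold change of -0.87, -0.90 and -0.83 (adjusted p = 0.017, 0.0133 and 0.0434). Without the first or the second of these libraries it was also called lower in IL4_IL13_TNFa than in Control (-0.83 and -0.86, adjusted p = 0.0219 and 0.0133). In these runs it passed the filter mostly through Control libraries, where its mean was highest, so the calls lend no support. With all 18 libraries and no filter, edgeR called Arg2 in neither IL4_IL13 nor IL4_IL13_TNFa against Control (-0.68 and -0.62, adjusted p = 0.175 and 0.19). Its exons share 285 bases with Vti1b on the opposite strand, which had 735 to 1161 counts in a library, and whether the counting used strand is not given in the sources used here. Per kilobase of exon the median ratio of Arg1 to Arg2 was 0.374 in Control, 901.8 in IL4_IL13 and 147.0 in IL4_IL13_TNFa.

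Nos2 encodes inducible nitric oxide synthase and lies on chromosome 11 from 78920787 to 78960254, plus strand. Control replicates 1 to 6 had 12, 1, 2, 13, 0 and 1 counts, and IL4_IL13 replicates had 5, 0, 0, 2, 1 and 1. In IL4_IL13_TNFa the level was 34.3, 46.5, 26.5, 21.6, 29.3 and 18.8 CPM. The TNFa libraries lay far above both other groups, which overlapped (IL4_IL13 against Control -1.54 ± 0.93, adjusted p = 0.162, with -2.29 without IL4_IL13 replicate 1 and -0.94 without Control replicate 4, neither called). The rise with TNFa was 8.31 ± 0.51 on the log2 scale over IL4_IL13 (adjusted p = 9.9e-11, and 9.07 without IL4_IL13 replicate 1) and 6.77 ± 0.44 over Control (adjusted p = 9.43e-11, and 7.37 without Control replicate 4). Nos2 passed the filter through the IL4_IL13_TNFa libraries alone, so the p-values of these rises lend no support. Summed counts gave ratios of 340.5 (95% counting interval 179.1 to 745.4) and 111.3 (77.3 to 166.6). Arg1 and Nos2 were thus both present in the same IL4_IL13_TNFa libraries, where per kilobase of exon Arg1 exceeded Nos2 in 6 of 6, by a ratio of 2.80 to 9.54 with a median of 6.31.

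Ass1 encodes argininosuccinate synthase, which joins citrulline to aspartate, and lies on chromosome 2 from 31470207 to 31520672, plus strand. Control replicates 1 to 6 had 10.4, 3.85, 3.97, 2.49, 3.25 and 3.52 CPM. The IL4_IL13 libraries had 16.3, 15.5, 10.9, 10.4, 10.9 and 9.97 CPM, and the IL4_IL13_TNFa libraries 556.6, 534.1, 471.0, 481.7, 444.8 and 455.9 CPM. Every TNFa library stood over 10-fold above all others, while Control and IL4_IL13 overlapped through Control replicate 1. IL-4 and IL-13 raised Ass1 by 1.42 ± 0.25 (adjusted p = 0.000122, and 1.85 without Control replicate 1). TNFa raised it by a further 5.31 ± 0.25, which is 39.7-fold (adjusted p = 2.64e-12), and the total over Control was 6.73 ± 0.28, or 106-fold (adjusted p = 1.22e-13).

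Asl encodes argininosuccinate lyase, the next enzyme, which releases arginine and fumarate, and lies on chromosome 5 from 130011258 to 130029247, minus strand. Its levels hardly left a narrow band: 45.0 to 59.4 CPM in Control, 39.6 to 48.0 CPM in IL4_IL13 and 56.2 to 61.9 CPM in IL4_IL13_TNFa, with medians of 54.6, 43.9 and 58.9 CPM. It was lower in IL4_IL13 than in Control in 6 of 6 numbers (-0.31 ± 0.06, adjusted p = 0.00033), though the ranges overlap. TNFa raised it by 0.44 ± 0.06 with no overlap (adjusted p = 5.45e-06). On library totals, which shift the median of all genes by -0.20 in that comparison, the rise was 0.24 (adjusted p = 0.00332). IL4_IL13_TNFa against Control was not called (0.13 ± 0.06, adjusted p = 0.0606). The last value sits at the threshold. It was called without Control replicate 3, IL4_IL13 replicate 1, IL4_IL13 replicate 6 or IL4_IL13_TNFa replicate 5 (adjusted p = 0.0369 to 0.0482) and with no filter (0.21, adjusted p = 0.0119). With a block for replicate number it was 0.14 (adjusted p = 0.0283), and on library totals, which shift the median of all genes by -0.27, it was -0.12 (adjusted p = 0.103). The RNA of the citrulline recycling genes Ass1 and Asl therefore changed on different scales, and enzyme amounts were not measured. Per kilobase of exon the ratio of Ass1 to Asl had a median of 0.132 in Control (0.0923 to 0.462), 0.505 in IL4_IL13 (0.416 to 0.824) and 16.1 in IL4_IL13_TNFa (15.4 to 19.3), with groups overlapping only between Control and IL4_IL13.

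For 3 of the 10 genes, the RefSeq table of GRCm38.p6 holds the sequence before the transcription start: Ass1, which rose 39.7-fold with TNFa, and Odc1 and Sat1, which make and acetylate polyamines and moved in opposite directions in IL4_IL13_TNFa against Control. The 250 bases before each start are shown 5′ to 3′ on the strand of the gene, at chr2:31470020-31470269 for Ass1, chr12:17544623-17544872 for Odc1 and chrX:155216450-155216699 on the minus strand for Sat1. GENCODE M21 places the first base of Ass1 and Odc1 inside these windows, so their annotated starts differ between the sources. Capitals mark matches to any of 7 motifs searched on both strands.
Ass1: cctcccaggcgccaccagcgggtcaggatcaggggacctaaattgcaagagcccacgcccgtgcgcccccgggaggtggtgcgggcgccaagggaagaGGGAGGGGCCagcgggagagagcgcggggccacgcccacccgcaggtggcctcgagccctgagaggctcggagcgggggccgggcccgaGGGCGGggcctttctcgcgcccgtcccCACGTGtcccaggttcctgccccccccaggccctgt
Odc1: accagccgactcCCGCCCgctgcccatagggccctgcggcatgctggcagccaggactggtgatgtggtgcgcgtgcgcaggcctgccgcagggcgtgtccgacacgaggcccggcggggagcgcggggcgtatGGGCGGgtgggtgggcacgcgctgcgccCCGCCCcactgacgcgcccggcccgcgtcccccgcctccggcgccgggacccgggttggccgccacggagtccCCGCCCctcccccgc
Sat1: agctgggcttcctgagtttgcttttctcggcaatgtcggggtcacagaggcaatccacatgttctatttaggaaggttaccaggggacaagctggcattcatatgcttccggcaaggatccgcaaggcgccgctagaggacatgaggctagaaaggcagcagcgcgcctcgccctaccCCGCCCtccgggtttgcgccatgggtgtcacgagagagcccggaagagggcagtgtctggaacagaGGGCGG
In Ass1 the capitals are an NF-kB form (GGGA and CC with 4 bases between) that begins 152 bases before the start, a GC box (GGGCGG) at 63 and an E-box (CACGTG) at 36. Odc1 has GC boxes at 238, 116, 88 and 15 bases before the start and Sat1 at 72 and 6. None of the 3 windows holds TATAAA, TGACGTCA, or the STAT forms, TTC and GAA with 4 or 3 bases between, and no marked matches overlap one another. Among all 32851 promoters of the table, windows of the same length held the NF-kB form in 17.6%, GGGCGG in 32.7%, CACGTG in 6.02%, TATAAA in 12.4%, TGACGTCA in 1.55% and the STAT forms in 5.85% with 4 bases between and 7.02% with 3. These matches describe letters and are no evidence that a factor binds.

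Odc1 encodes ornithine decarboxylase, the enzyme that commits ornithine to putrescine, and lies on chromosome 12 from 17544794 to 17551505, plus strand. Control replicates 1 to 6 had 47.6, 16.3, 13.5, 15.8, 13.6 and 16.8 CPM. The IL4_IL13 libraries had 59.1, 37.5, 33.8, 44.4, 35.8 and 42.8 CPM, and the IL4_IL13_TNFa libraries 55.4, 47.9, 53.4, 52.1, 48.2 and 60.5 CPM. The first Control library reached into the IL4_IL13 range and the other 5 stayed below it. IL-4 and IL-13 raised Odc1 by 1.03 ± 0.26 (adjusted p = 0.00225, and 1.48 without Control replicate 1), in 6 of 6 numbers. Adding TNFa gave 0.32 ± 0.25, which was not called (adjusted p = 0.28). That call turned with the libraries used: it was made without Control replicate 1 (adjusted p = 0.015), without the 3 libraries numbered 1 (0.43, adjusted p = 0.000146) and with only the 2 groups in the fit (adjusted p = 0.0313). IL4_IL13_TNFa exceeded Control by 1.36 ± 0.26 without overlap (adjusted p = 0.000115, and 1.80 without Control replicate 1).

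Azin1 encodes antizyme inhibitor 1, which frees ornithine decarboxylase from antizyme and so from degradation, and lies on chromosome 15 from 38487427 to 38519266, minus strand. Control had 285.8 CPM in replicate 1 and 82.7 to 108.5 CPM in the others. IL4_IL13 had 241.0 CPM in replicate 1 and 145.0 to 180.6 CPM in the others, and IL4_IL13_TNFa had 153.1 to 180.8 CPM. Apart from replicate 1, every Control library was below every cytokine-treated library. With all libraries no comparison was called: 0.50 ± 0.24 for IL4_IL13 against Control (adjusted p = 0.0874), -0.07 ± 0.24 for added TNFa (adjusted p = 0.814) and 0.42 ± 0.24 for IL4_IL13_TNFa against Control (adjusted p = 0.124). Without Control replicate 1 the values against Control were 0.92 and 0.85 (adjusted p = 4.53e-07 and 7.67e-07), and with the replicate block they were 0.60 and 0.57 (adjusted p = 0.00663 and 0.00788). By limma voom they were 0.64 and 0.58 (adjusted p = 0.0183 and 0.0239).

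Srm encodes spermidine synthase, which turns putrescine into spermidine, and lies on chromosome 4 from 148591503 to 148594993, plus strand. Control replicates 1 to 6 had 41.2, 10.8, 7.10, 9.79, 8.16 and 9.56 CPM. The IL4_IL13 libraries had 41.3, 25.3, 16.8, 26.9, 17.9 and 26.7 CPM, and the IL4_IL13_TNFa libraries 46.8, 47.7, 47.1, 50.1, 39.1 and 56.8 CPM. Within each replicate number the level was lowest in Control and highest in IL4_IL13_TNFa, but in replicate 1 Control and IL4_IL13 were nearly level. IL4_IL13 against Control gave 0.83 ± 0.36 and was not called (adjusted p = 0.0524), while with the block it was 0.99 (adjusted p = 0.00464) and without Control replicate 1 it was 1.51 (adjusted p = 3.24e-06). It was also called without IL4_IL13 replicate 3 or 5 (adjusted p = 0.0404 and 0.0434), by DESeq2 (adjusted p = 0.0264), with a filter of 5 CPM in 6 libraries (adjusted p = 0.0413) and by limma voom (adjusted p = 0.00619). TNFa raised Srm by a further 0.89 ± 0.35 (adjusted p = 0.0354). That call did not hold on library totals (0.68, adjusted p = 0.0947), nor with no filter (0.90, adjusted p = 0.129), nor without any single one of IL4_IL13 replicates 2 to 6 or IL4_IL13_TNFa replicates 2, 3, 4 and 6, where adjusted p ran from 0.0507 to 0.0766. With the block it was 0.99 (adjusted p = 0.00296). IL4_IL13_TNFa exceeded Control by 1.72 ± 0.36 (adjusted p = 0.000292, and 2.40 without Control replicate 1).

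Sat1 encodes spermidine/spermine acetyltransferase, the rate-limiting enzyme of polyamine breakdown, and lies on the X chromosome from 155213132 to 155216449, minus strand. Control replicates 1 to 6 had 153.0, 379.9, 401.5, 364.9, 414.9 and 374.3 CPM. The IL4_IL13 libraries had 251.5, 363.9, 379.1, 293.7, 416.3 and 349.7 CPM, and the IL4_IL13_TNFa libraries 151.5, 158.1, 159.9, 139.5, 177.5 and 150.1 CPM. Sat1 ran opposite to Odc1, Azin1 and Srm in the first libraries of Control and IL4_IL13, where it was lowest. IL4_IL13 against Control was not called (-0.02 ± 0.18, adjusted p = 0.916). TNFa lowered Sat1 by 2.19-fold without overlap (-1.13 ± 0.18, adjusted p = 2.54e-05), and IL4_IL13_TNFa was below Control (-1.16 ± 0.18, adjusted p = 1.28e-05, and -1.31 without Control replicate 1), overlapping it only through that library. Per kilobase of exon the median ratio of Odc1 to Sat1 was 0.0351 in Control, 0.0919 in IL4_IL13 and 0.285 in IL4_IL13_TNFa. The lowest TNFa ratio, 0.221, lay above the highest of IL4_IL13, 0.191, and the first Control library lay at 0.254 among them.

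Several of these genes stood apart in the first library of a group. In Control replicate 1 the log2 level lay from the other controls by 2.18 for Srm, 1.65 for Odc1, 1.60 for Azin1, 1.59 for Ass1 and -1.34 for Sat1, but by 0.39 for Slc7a2 and -0.30 for Asl. Arg1 and Nos2, of few counts in Control, lay by 1.39 and 1.62 there, but Arg1 also by -1.37 and -1.35 in replicates 5 and 6 and Nos2 by 1.95 and -1.51 in replicates 4 and 5. In IL4_IL13 replicate 1 it lay by 0.89 for Srm, 0.61 for Odc1, 0.54 for Azin1, 0.90 for Arg1, 0.51 for Ass1, 0.45 for Slc7a2, -0.16 for Asl and -0.51 for Sat1, and by 1.17 for Nos2, which had few counts. The summed cell cycle level was also highest in the first library of Control and IL4_IL13, at 4535 and 4461 CPM. Under TNFa this did not run in parallel: the cell cycle sum was lower than in IL4_IL13 in 6 of 6 numbers, with 20 of 20 genes called lower (29.3% of all tested genes) at a median log2 fold change of -2.69, while Srm was called higher and Odc1 was not called. The part of the cell cycle in these values was not tested.

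**Figure D3:**
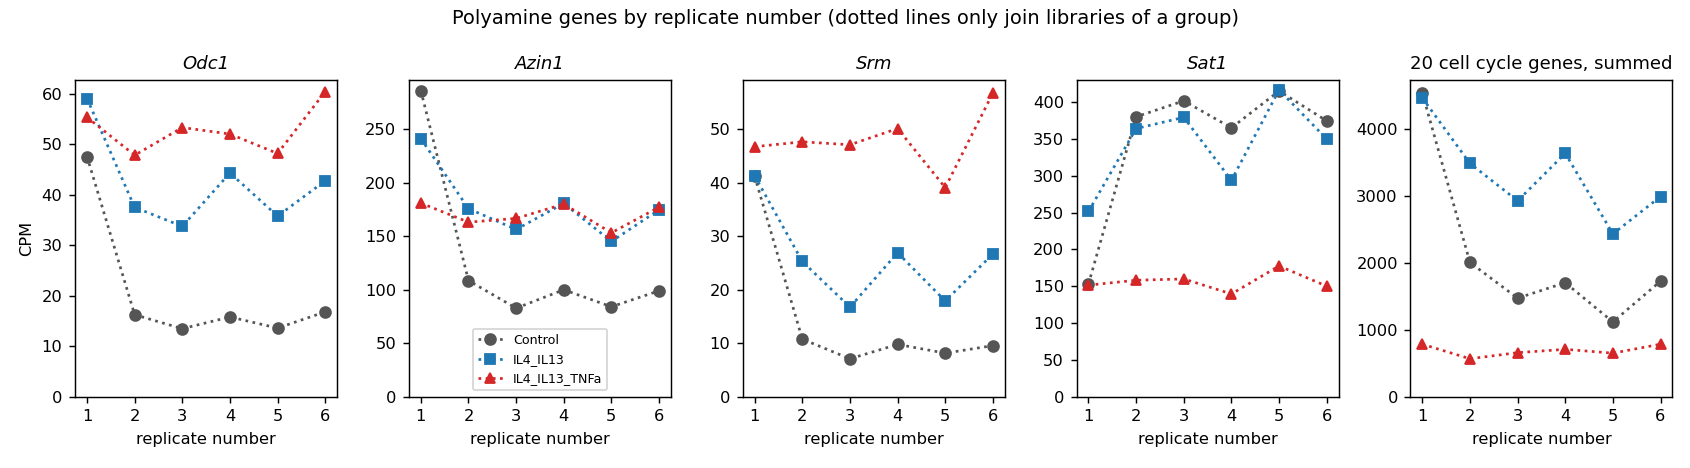
Level (CPM) of 4 polyamine genes and the summed level of 20 cell cycle genes by replicate number, with circles for Control, squares for IL4_IL13 and triangles for IL4_IL13_TNFa; dotted lines only join libraries of a group. Control replicate 1 lies with the cytokine-treated libraries for Odc1 and Srm, above all of them for Azin1 and with the TNFa libraries for Sat1, and the TNFa libraries have a cell cycle sum of 568 to 785.4 CPM.

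Set per kilobase of exon, so that genes can be ranked within a group, the order changed with each treatment. In Control Sat1 led with a mean of 125.5 ± 35.1 CPM per kb (SD, n = 6), ahead of Azin1 with 20.2 and Asl with 11.1, and Arg1 stood ninth of the 10 genes at 0.211. In IL4_IL13 Arg1 led with 289.7 ± 98.5 CPM per kb, and its lowest library, 175.7, lay above the highest of Sat1, 150.1. Per kilobase of the longest coding transcript Arg1 still led on average, but its lowest library at 265.0 was below the highest of Sat1 at 358.3. Slc7a2 followed with 44.6 and Nos2 was last with 0.0179. In IL4_IL13_TNFa Ass1 led with 203.3 ± 18.5 CPM per kb, its lowest library at 184.3 against the highest of Slc7a2 at 181.3. Slc7a2 had 147.1 ± 23.1, Sat1 56.3 ± 4.58 and Arg1 38.2 ± 9.38, the latter pair overlapping. Arg1, Srm with 30.0 ± 3.57 and Azin1 with 27.2 ± 1.76 also overlapped. Below them came Odc1 with 15.5, Asl with 12.2, Nos2 with 6.68 ± 2.26 and Arg2 with 0.290 CPM per kb. With lengths of the longest coding transcript only the ranks of Odc1 and Asl changed places in that group, but Arg1, at most 78.5, no longer overlapped Sat1, at least 120.1, nor Azin1, at most 37.1 against at least 41.2 CPM per kb for Arg1.

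The wider pathway was described by 51 other genes in 5 lists, of which 41 passed the filter. IL4_IL13 against Control called 15 of the 41 higher and 8 lower, beside 29.3% and 29.7% of all tested genes. Added TNFa called 13 higher and 12 lower (30.3% and 29.3% of all), and IL4_IL13_TNFa against Control 15 higher and 13 lower (36.4% and 37.3% of all). On library totals, which shift the median of all genes by -0.20, added TNFa called 5 higher and 18 lower. The median log2 fold changes of the 41 were 0.13, -0.03 and -0.05 against 0, 0 and -0.02 for all genes. Genes are named by a rule, the 2 largest called changes per list whose groups do not overlap and whose higher group averages 5 CPM or more, and the few named outside it are marked.

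Among 8 tested transport genes, 2 were called higher and 1 lower with IL-4 and IL-13 (29.3% and 29.7% of all tested genes), and 1 each way with added TNFa (30.3% and 29.3% of all). Slc7a7, whose product exports arginine as a partner of the heavy chain Slc3a2, fell from a mean of 20.5 ± 1.46 to 9.11 ± 1.2 CPM (-1.16 ± 0.10, adjusted p = 1.28e-08). Slc3a2 itself rose with TNFa from 243.6 to 433.5 CPM (0.83 ± 0.13, adjusted p = 2.07e-05). Slc38a9, a lysosomal arginine sensor, fell from 73.6 to 54.8 CPM (-0.42 ± 0.10, adjusted p = 0.00133). Slc7a1, which encodes the constitutive carrier CAT-1 and was picked after its values were seen, had 114.6 CPM in Control replicate 1 and 12.3 to 21.3 CPM in the other controls. Its rise to a mean of 81.2 CPM in IL4_IL13 was called (1.33 ± 0.46, adjusted p = 0.0187).

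In the list of urea cycle, ornithine and proline genes, 6 of 9 were tested. Otc had 0 counts in all 18 libraries, Cps1 19, 4 and 2 counts in the 3 groups and Nags 0, 0 and 4, so the mitochondrial start of the urea cycle was hardly detectable at this depth. Oat, the ornithine aminotransferase that leads from ornithine towards proline, rose from 88.4 to 119.2 CPM with IL-4 and IL-13 (0.43 ± 0.07, adjusted p = 2.25e-05). In that comparison 3 of the 6 were called higher and none lower, where 29.3% and 29.7% of all tested genes were. With added TNFa 1 was higher and 2 lower, beside 30.3% and 29.3% of all.

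Of 14 tested polyamine genes, 4 were called higher and 4 lower with IL-4 and IL-13 (29.3% and 29.7% of all tested genes), and 7 higher and 5 lower with added TNFa (30.3% and 29.3% of all). Azin2, another antizyme inhibitor gene, rose from 3.67 to 17.1 CPM with IL-4 and IL-13 (2.22 ± 0.10, adjusted p = 6.51e-13) and stood at 21.6 CPM with TNFa (2.55 ± 0.10 over Control, adjusted p = 2.28e-14). Eif5a, whose protein carries hypusine, a residue made from spermidine, rose from 236.8 to 640.0 CPM (1.43 ± 0.16, adjusted p = 5.69e-07), and was at 861.9 CPM with TNFa (1.86 ± 0.16 over Control, adjusted p = 7.06e-09). Added TNFa lowered Oaz2, an antizyme that marks ornithine decarboxylase for degradation, from 24.1 to 14.2 CPM (-0.76 ± 0.10, adjusted p = 2.32e-06). It also lowered Paox, a polyamine oxidase that acts on acetylated polyamines, from 7.04 to 4.25 CPM (-0.73 ± 0.15, adjusted p = 0.000455). Smox, the spermine oxidase gene, was picked after its values were seen. It fell from 138.1 to 52.7 CPM with IL-4 and IL-13 (-1.39 ± 0.05, adjusted p = 4.42e-14). Unlike Paox, it rose with added TNFa, to 77.2 CPM without overlap (0.55 ± 0.05, adjusted p = 9.82e-09). It stayed below Control (-0.84 ± 0.05, adjusted p = 1.08e-11).

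Of 9 tested genes for nitric oxide synthases, their cofactor and their inhibitors, 4 were called higher and 2 lower both with IL-4 and IL-13 (29.3% and 29.7% of all tested genes) and with added TNFa (30.3% and 29.3% of all). Gch1, the rate-limiting enzyme for tetrahydrobiopterin, the cofactor of nitric oxide synthases, had 12.5 to 15.8 CPM in Control, 10.5 to 16.7 CPM in IL4_IL13 and 100.3 to 117.1 CPM in IL4_IL13_TNFa. Like Nos2, it was set apart in the TNFa libraries alone, rising 7.75-fold over IL4_IL13 (2.95 ± 0.09, adjusted p = 3.62e-15). Qdpr, which regenerates the cofactor, rose with IL-4 and IL-13 from 55.8 to 115.7 CPM (1.05 ± 0.09, adjusted p = 9.54e-09). Ddah2, linked to the breakdown of methylarginine inhibitors, was 6.41 CPM in Control and 1.12 CPM in IL4_IL13_TNFa (-2.52 ± 0.20, adjusted p = 1.59e-09). Nos1 and Nos3 stayed below 0.3 CPM on average in every group and were not tested.

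Creatine synthesis, another use of arginine, was followed in 4 genes. Gatm, which moves the amidino group of arginine to glycine, had 38.4 to 87.8 CPM in Control, 443.6 to 693.3 CPM in IL4_IL13 and 168.4 to 239.8 CPM in IL4_IL13_TNFa. Its groups did not overlap and lay in the same order as those of Arg1. The rise was 3.37 ± 0.17 (adjusted p = 1.13e-11) and the fall with TNFa -1.51 ± 0.16 (adjusted p = 1.62e-07). Gamt, which makes creatine in the next step, had means of 15, 19.9 and 9.80 CPM (0.41 ± 0.07 with IL-4 and IL-13, adjusted p = 6.35e-05, and -1.02 ± 0.07 with added TNFa, adjusted p = 4.09e-10).

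**Figure D4:**
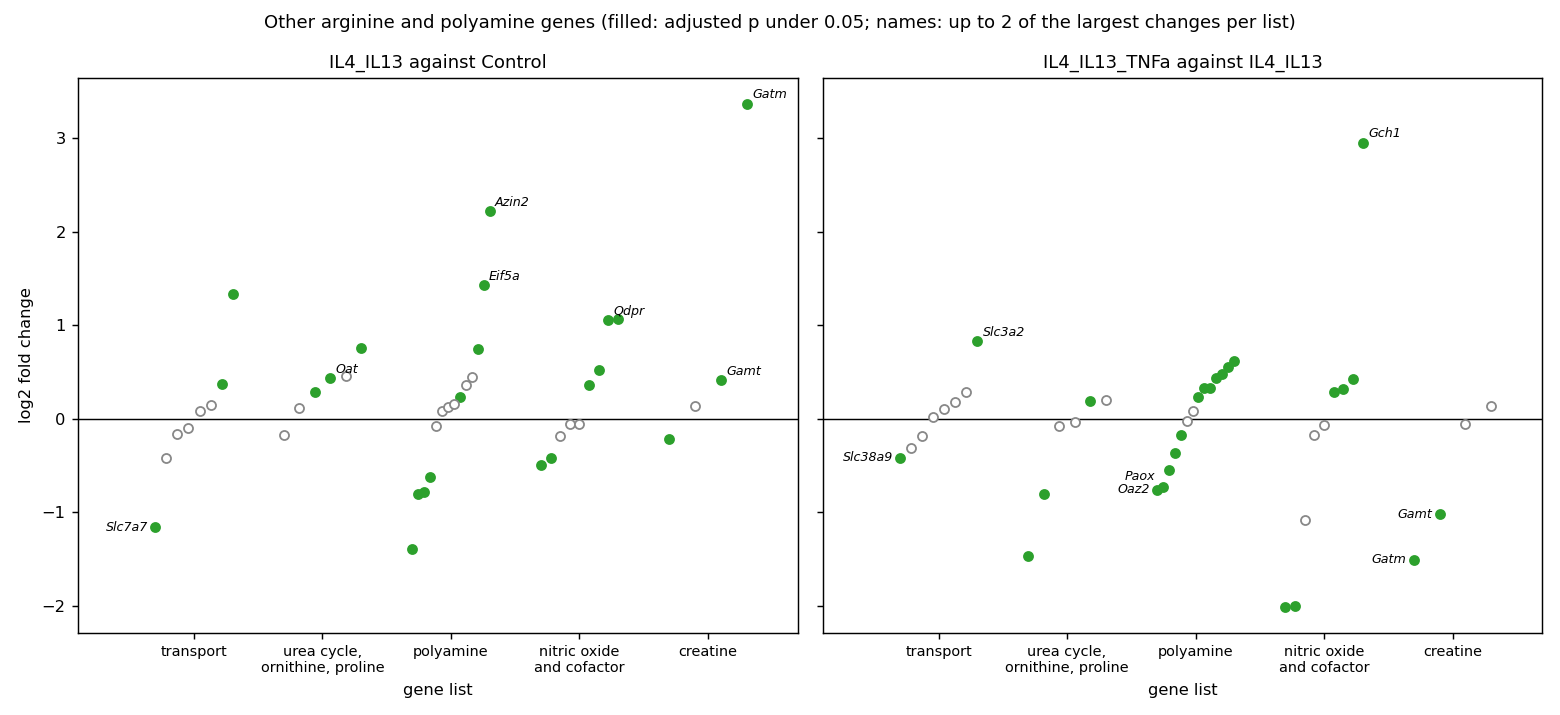
Log2 fold change of the 41 tested genes of the wider lists in IL4_IL13 against Control and in added TNFa against IL4_IL13, each point a gene, filled where the adjusted p is under 0.05, with genes of the rule named. Each list has genes on both sides of 0 in at least one panel; Gatm at 3.37 and Azin2 at 2.22 lie highest on the left, and Gch1 at 2.95 lies highest on the right.

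Of 12 regulators, all tested, 8 were called higher and 3 lower with IL-4 and IL-13 (29.3% and 29.7% of all tested genes), and 6 higher and 2 lower with added TNFa (30.3% and 29.3% of all). Irf4, a transcription factor of the IL-4 response, had means of 9.23, 184.5 and 178.1 CPM (4.33 ± 0.29 with IL-4 and IL-13, adjusted p = 4.71e-10). Klf4, which acts with Stat6 in mouse macrophages, had 36.9, 190.9 and 51.6 CPM, rising by 2.37 ± 0.06 (adjusted p = 1.2e-15) and falling with TNFa (-1.89 ± 0.06, adjusted p = 1.37e-14). Pparg, a nuclear receptor, also fell with TNFa, from 108.9 to 40.1 CPM (-1.44 ± 0.09, adjusted p = 4.26e-11). In the TNFa step Klf4 and Pparg fell, as Arg1 did, and Irf4 was not called (-0.05 ± 0.24, adjusted p = 0.869). Myc, of which Odc1 is a textbook target, had 59.5 CPM in Control replicate 1, 8.43 to 13.2 CPM in the other controls, and means of 86.5 and 94.6 CPM in the cytokine groups (IL4_IL13_TNFa against Control 2.29 ± 0.36, adjusted p = 1.67e-05, and 3.07 without Control replicate 1).

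Genes with the most similar pattern were looked for among 10317 others, by the smallest root mean square difference of log2 CPM over the 18 libraries, each gene centred on its own mean. The values were not scaled, so this distance grows with the size of a gene's own changes and does not rank the followed genes against each other. Odc1 lay nearest to Nop58 at 0.0929, Bzw2 at 0.109 and Ranbp1 at 0.116, and Nop58 had means of 31.8, 61.5 and 78.2 CPM in the 3 groups. Slc7a2 was nearest to Siglecf at 0.334, which is also on the eosinophil marker list (Epx, another of that list, had 0 counts), Bhlhe40 at 0.379 and Snn at 0.389. For Ass1 the nearest were Alas1 at 0.542, with means of 49.1, 128.4 and 2920 CPM, Serpinb1b at 0.552 and Met at 0.619. Nos2 was nearest to Artn at 0.772, Serinc2 at 0.820 and Tnfsf4 at 0.828. No gene matched Arg1 within 1 log2 unit: Mgl2 at 1.3 came first, with 0.243, 296.3 and 174.2 CPM, before Ear2 and Ocstamp, both at 1.47. Ear2 had 0.0188, 68.6 and 2.80 CPM, and Ocstamp 0.322, 87.9 and 106 CPM. The mean of Ocstamp was thus higher with added TNFa, where Arg1 fell.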

How the data were processed

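Poly(A) RNA was sequenced from stranded libraries, per the labels' protocols. What the authors deposited is a table of raw counts, whole numbers of reads for each gene. Per the submitters' processing notes, the tools were FastQC 0.11.5, featureCounts 1.5.1, STAR (2.5.2, 2.5.2b), RSEM 1.3.0 and bcl2fastq 2.20.0.422, and the build was GRCm38 (mm10). Not given in the sources used here: the annotation release, filters and strand setting of the counting. Genes that overlap on opposite strands are therefore uncertain.

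Symbols came from GENCODE M21 (48434 of 48794 rows). Libraries were grouped by title and held 14793404 to 20056125 counts. Libraries of a group differed beyond sampling noise in all 45 pairs (chi-square per degree of freedom at least 2.59). Counting intervals (95%) cover counting error only. In R 4.3.3, edgeR 4.0.16 kept 13177 genes (filterByExpr, minimum count 10), scaled by TMM and fitted all 18 libraries with a robust quasi-likelihood model. Standard errors were taken as the size of the log2 fold change divided by the root of the test's F. The scripts were tested on simulated counts. Patterns used log2 CPM with a prior count of 2.

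Same-numbered libraries deviated together (correlations 0.128 to 0.671 in all 18 pairs, 16 of them mutual best matches), although no label gives a reason. They were compared as pairs only in the tallies by replicate number and in the run with a replicate block. The main tests left the replicate number out. The genes, lists and tests were chosen with earlier results of these data known. Alternatives were DESeq2 1.42.0 and its size factors, library totals, no filter, a filter of 5 CPM in 6 libraries, limma 3.58.1 voom, a replicate block, only the groups compared, each library left out, and the 3 libraries numbered 1 left out. A gene that the naming rule takes is not reported here.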

Additional observations from a re-analysis of the deposited data

Results flagged for a closer look

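Among the 30 gene and group combinations examined, 7 held a library far from the other 5. The rule flags about 1 in 20 by chance for independent combinations. The combinations here share libraries, so 7 of 30 cannot be set against that rate. Of the 7 flagged libraries, 5 were Control replicate 1. Ass1 was at 10.4 CPM there against 2.49 to 3.96 CPM in the other controls, Odc1 at 47.6 against 13.5 to 16.8 CPM, Azin1 at 286 against 82.7 to 108 CPM and Srm at 41.2 against 7.10 to 10.8 CPM. Sat1 was low in the same library, at 153 CPM against 365 to 415 CPM. Azin1 was also high in IL4_IL13 replicate 1, at 241 CPM against 145 to 181 CPM. Arg2 was at 0.711 CPM in IL4_IL13_TNFa replicate 2 against 0.313 to 0.396 CPM, a difference of few counts.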

How the results depend on the processing

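No result changed direction past the threshold under any alternative run. Slc7a2, Arg1, Nos2, Ass1, Asl, Odc1 and Sat1 kept every call they had. Srm lost its call for added TNFa in some runs, and Arg2, Asl, Odc1, Azin1 and Srm gained calls in some. Library totals left 5 of the wider genes called higher with added TNFa in place of 13. The number of followed genes called lower was 1 both for IL4_IL13 against Control and for IL4_IL13_TNFa against Control. It ranged from 1 to 2 with single libraries left out and was 2 without the 3 libraries numbered 1, since Arg2 then passed the filter and was called. Without Control replicate 1 the genes called higher were 6, 7 and 6 in the order IL4_IL13 against Control, IL4_IL13_TNFa against Control and added TNFa, in place of 4, 6 and 5. The replicate block added calls for Azin1 (0.60, adjusted p = 0.00663) and Srm (0.99, adjusted p = 0.00464) in IL4_IL13 against Control, and for Azin1 (0.57, adjusted p = 0.00788) and Asl (0.14, adjusted p = 0.0283) in IL4_IL13_TNFa against Control, and changed no other call of the 10 genes. Depth limits Arg2, with 5 to 18 counts in a library, and Nos2 in the groups without TNFa, with 0 to 13. The cause of these shifts was not tested.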
